A study of Mus musculus with 16 samples.

Results

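Normal development of the mouse heart between E11.5 and E13.5 was described from the 8 control hearts of an array series of 16, with 4 hearts at each stage and no mutant array in any value. Each array held RNA of 1 whole heart of C57BL/6 background on an Affymetrix Mouse Gene 1.0 ST array, which reads a transcript with probes spread along its length. The embryos came from crosses of Chd7fl/+;Mesp1-Cre with Chd7fl/fl mice, and the labels call the controls WT. The study's methods call these controls Chd7+/+;Mesp1-Cre, a genotype that this cross cannot give, so the exact genotype of the controls at Chd7, and whether they carried Mesp1-Cre, is not settled here. Mesp1-Cre acts in the early mesoderm that forms most of the heart. Both stages shared this cross. Of 34760 probe sets, 21640 named a single gene, and these stood for 19937 genes, each read by its brightest probe set.

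Over these days the looped heart tube becomes a heart with chambers divided by septa. Muscle fibres gain myofibrils, calcium stores and mitochondria. Epicardial cells enter the wall and give rise to fibroblasts and to cells around vessels, while endothelial sprouts build the coronary plexus. The jelly of the endocardial cushions is remodelled towards valves, macrophages seed the wall, and the blood in the chambers passes from primitive red cells of the yolk sac to definitive red cells of the liver. As each array read a whole heart with the blood inside it, fewer cells of a type and less RNA per cell cannot be told apart.

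All levels below are log2 RMA values after quantile normalisation over the 8 arrays, and a difference is E13.5 minus E11.5 (log2 FC). The test was limma with Benjamini-Hochberg adjustment over all probe sets, and a gene was called higher or lower where the log2 FC exceeded 0.5 in size with an adjusted p below 0.05. Single hearts are listed by replicate number, which ran 1, 2, 3 and 4 in the E11.5 group and 1, 2, 4 and 5 in the E13.5 group. Each array stood for a different embryo, and whether litters were shared is not given in the sources used here.

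Stage and array properties moved together. As deposited, the SD within an array was 2.18 to 2.26 at E11.5 and 2.39 to 2.40 at E13.5, and a bright probe set that names no gene read 12.87 to 13.07 at E11.5 and 11.52 to 11.67 at E13.5. Olfactory, vomeronasal and taste receptor genes, taken here as a group mostly silent in heart, showed the same split. Of 1224 such genes, 305 (24.9%) were called lower and 3 were called higher, with a median log2 FC of -0.35 against 0.01 over all genes. The stages and any array batch cannot be told apart, and the part of this split in the calls below was not tested. The 95th percentile of the receptor genes in their higher stage, 6.48, is called the receptor level here. A change between a stage above it and one below it is a difference of readings. The E11.5 mean was below it for the risers Adgre1, Irf7, Dpt, Aspn, Fabp4, Meox2, Myom2, Mybpc2, Rxrg, Fgfr4, Ahsg, Pcgf1, Zfp330, Snord37 and the loci Mir145a, Mir377, Mir382, Mir323, Mir568 and Mir7-1. The E13.5 mean was below it for the fallers Timd4, Dmkn, Lin28b, H2bc22, Slc25a21, Tmem184a, Krtap1-5 and Olfr114. Both means were below it for Ifit3, Crygf, Mir126a, Mir204, Mir208a and Mir539.

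The tissue matched its label. The 8 cardiomyocyte markers (Tnnt2, Actc1, Myh6, Myh7, Nkx2-5, Ttn, Actn2 and Ryr2) read between 9.95 and 14.16 in every heart. The Y-linked Eif2s3y read 8.37 to 9.22 in the E11.5 hearts, 5.19 and 3.85 in E13.5 hearts 1 and 2, and 9.61 and 9.87 in E13.5 hearts 4 and 5. Thus 4 of 4 hearts at E11.5 and 2 of 4 at E13.5 carried Y-linked transcripts. E13.5 heart 1 stood apart, with 35 genes at least 1 above the other hearts of its stage, against 0 to 7 in the others. E11.5 heart 2 also stood apart, with 40 genes at least 1 below the other hearts of its stage and 27 above them, against 14 to 22 below and 12 to 20 above in the other E11.5 hearts. Foxf2 (8.79 against 5.46 to 5.65) and Foxf1 (9.78 against 7.19 to 7.42) led the genes of E13.5 heart 1, both factors of splanchnic mesenchyme, and the red cell gene Rhag was also among them. Chd7 itself, the gene floxed in this line, read 10.76, 11.07, 10.76 and 10.89 at E11.5, against 10.12, 9.74, 10.17 and 9.72 at E13.5 (-0.93), a fall that was not called with the median of its probe sets (-0.30).

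In all, 2267 genes were called higher at E13.5 (11.4% of 19937) and 1901 lower (9.54%). On the deposited values as well, 1986 of the higher genes (9.96%) and 1424 of the lower genes (7.14%) kept their call and direction. The change was over 1 on the log2 scale for 352 higher and 286 lower genes. The 4 hearts of one stage lay wholly above those of the other for 3964 genes rising (19.9%) and 3183 genes falling (16%). Of the 4168 called genes, 3779 (90.7%) had hearts apart in this way, and genes named by size were required to. Among the 13891 genes above this receptor level, 1962 (14.1%) were called higher and 1327 (9.55%) lower. Counts of gene groups below are to be read beside these shares, and whether a group exceeded them was not tested. The plot of change by level shows all genes and the receptor genes.

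**Figure D1:**
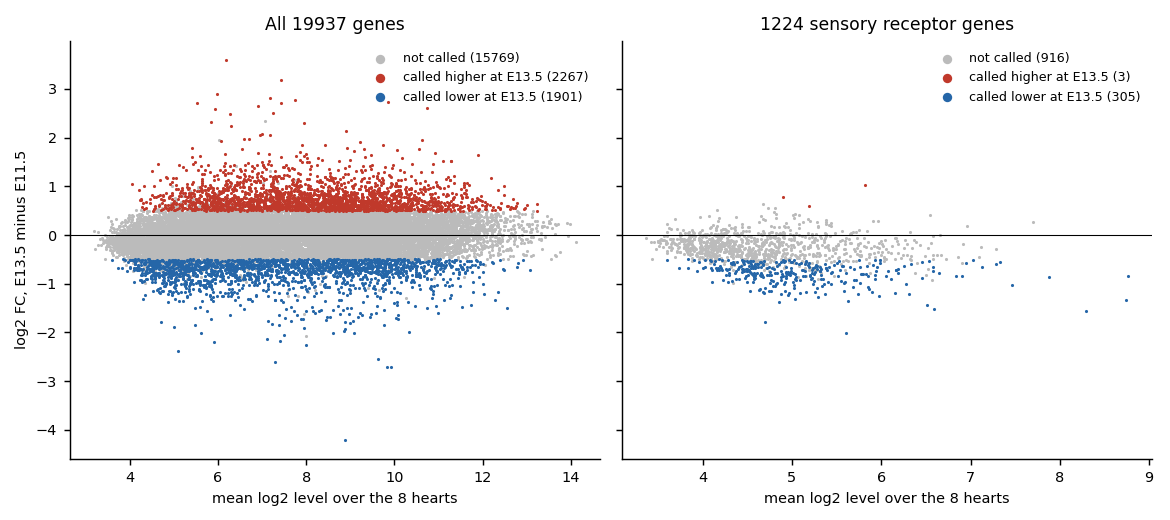
Change against level for all 19937 genes (left) and for the 1224 sensory receptor genes (right). The x axis is the mean log2 level over the 8 hearts and the y axis the log2 FC, E13.5 minus E11.5; each point is a gene. Red genes were called higher and blue genes lower, and the receptor genes lie mostly below 0, with 305 called lower.

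The largest fall was that of a red cell gene. Hemgn, which encodes a nuclear protein of erythroid precursors, read 11.36, 10.36, 10.69 and 11.49 in the E11.5 hearts and 7.12, 6.50, 6.86 and 6.62 in the E13.5 hearts. Every E13.5 heart thus lay at least 3.24 below every E11.5 heart, and the log2 FC was -4.20 ± 0.26 (SE; 18.4-fold lower, adjusted p = 3.39e-05). Klf1, a master factor of red cell genes, fell from 10.04, 9.16, 9.33 and 9.92 to 8.34, 7.18, 7.32 and 7.53 (log2 FC -2.02 ± 0.29, adjusted p = 0.00111). Of 18 red cell genes measured (enzymes of haem synthesis, membrane and cytoskeletal proteins, factors and receptors), 10 were called lower and none higher, and the median log2 FC was -0.97.

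Beside Hemgn and Klf1, the fall covered Cpox of haem synthesis (-1.65 ± 0.19), the membrane anchor Ank1 (-1.54 ± 0.29) and the erythropoietin receptor Epor (-1.45 ± 0.25), whose hearts did not overlap between stages. Rhag, a membrane channel, had a log2 FC of -2.01 ± 0.56 and Gata1, a factor of red cells and platelets, -1.54 ± 0.44, but their stages overlapped at E13.5 heart 1. The Rhag call was lost in 5 of the 8 fits that left out 1 heart (-1.94 to -1.77, without E11.5 hearts 1 or 4 or E13.5 hearts 2, 4 or 5), and the Gata1 call in 6 (-1.54 to -1.32, without the same hearts or E11.5 heart 3). Genes named by size alone joined them, among them the blood group genes Ermap (-2.0) and Rhd (-1.84) and the water channel Aqp3 (-1.91).

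The spread between hearts was wide for this group at both stages. Taken against the E11.5 mean of each gene, the median of the red cell list was 0.19, -0.57, -0.11 and 0.44 in the E11.5 hearts and -0.35, -1.2, -1.47 and -1.13 in the E13.5 hearts. E13.5 heart 1 lay nearest to the E11.5 hearts and above E11.5 heart 2. Without it 14 of the 18 genes were called lower, and 8 to 11 in the fits without another heart.

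Of the 3 embryonic globins measured, 1 was called. Hbb-bh1, the early beta-like chain of yolk sac red cells, read 13.40, 13.16, 13.19 and 13.47 at E11.5, against 12.91, 11.79, 10.99 and 11.52 at E13.5, so that the stages did not overlap (log2 FC -1.50 ± 0.35, adjusted p = 0.0104). Hba-x, the alpha-like partner, had a log2 FC of -0.35 ± 0.21 and Hbb-y, the other embryonic beta-like chain, -0.03 ± 0.09. Neither was called, though Hba-x was called lower with arrays centred and scaled (-0.69). Both read above 13 in all 8 hearts, in the range of the brightest muscle genes, and whether a probe set still follows a change at that level was not tested. No probe set named an adult globin gene alone.

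As these genes moved together, the 250 bases before the start of each called gene were read from RefSeq (GRCm38.p6), which held 8 of the 10, and searched on both strands for GATAA, the core of the GATA motif. It lay in 5 of the 8, and in 22.6% of 32851 promoters of all genes. The 4 of these genes with hearts apart are shown in the order of their fall, 5′ to 3′ on the gene's strand, with matches in capitals.
Hemgn, chr4:46404184-46404433, minus strand: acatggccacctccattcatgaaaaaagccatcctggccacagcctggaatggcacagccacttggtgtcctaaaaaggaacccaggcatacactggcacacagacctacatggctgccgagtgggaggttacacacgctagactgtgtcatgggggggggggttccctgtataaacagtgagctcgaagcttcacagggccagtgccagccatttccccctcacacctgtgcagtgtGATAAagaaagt
Klf1, chr8:84901732-84901981, plus strand: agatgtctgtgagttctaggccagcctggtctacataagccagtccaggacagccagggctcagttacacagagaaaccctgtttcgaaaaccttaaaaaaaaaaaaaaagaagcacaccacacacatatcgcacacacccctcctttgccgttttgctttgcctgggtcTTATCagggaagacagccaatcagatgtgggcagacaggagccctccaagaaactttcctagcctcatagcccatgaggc
Cpox, chr16:58669958-58670207, plus strand: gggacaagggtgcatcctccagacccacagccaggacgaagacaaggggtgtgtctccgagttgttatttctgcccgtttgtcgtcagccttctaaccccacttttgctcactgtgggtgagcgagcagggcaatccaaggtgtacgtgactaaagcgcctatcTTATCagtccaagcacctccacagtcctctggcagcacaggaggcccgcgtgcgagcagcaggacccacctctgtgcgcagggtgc
Epor, chr9:21963577-21963826, minus strand: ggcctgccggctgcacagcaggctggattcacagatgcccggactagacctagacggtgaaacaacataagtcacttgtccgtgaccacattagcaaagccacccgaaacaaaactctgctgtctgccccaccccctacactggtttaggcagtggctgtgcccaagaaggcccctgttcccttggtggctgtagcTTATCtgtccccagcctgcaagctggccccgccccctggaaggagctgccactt
Each of these windows held 1 match, which began at position -12 from the start in Hemgn, -80 in Klf1, -86 in Cpox and -54 in Epor. A match is a run of letters and not a measured binding site.

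Macrophage genes rose as a group. Of 28 measured, 20 were called higher and 1 lower, with a median log2 FC of 0.75. Adgre1, which encodes the macrophage surface protein F4/80, read 6.25, 6.05, 5.86 and 6.06 at E11.5, against 7.33, 7.95, 8.04 and 7.67 at E13.5 (log2 FC 1.69 ± 0.17, adjusted p = 0.000214). Every E13.5 heart lay above every E11.5 heart.

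The rise took in the complement chains C1qc (1.26 ± 0.17) and C1qa (1.04 ± 0.16), the mannose receptor Mrc1 (1.24 ± 0.10), the clotting factor chain F13a1 (1.24 ± 0.19), the signalling adaptor Tyrobp (1.22 ± 0.16) and Csf1r (0.70 ± 0.14), the growth factor receptor that macrophages need to live. The median of the list, taken against the E11.5 mean, was -0.14 to 0.09 in the E11.5 hearts and 0.59, 0.97, 0.88 and 0.68 in the E13.5 hearts. The member called lower was Timd4 (-0.52), a receptor for dying cells, and its call was lost in 7 of the 8 fits that left out 1 heart (-0.57 to -0.39), all but that without E11.5 heart 2. Without E13.5 heart 2, 14 members were called higher and none lower. With the Y-linked level of each heart as a covariate 13 members were called higher, a covariate tried because the embryos with Y-linked transcripts were unevenly spread between stages. Of 16 neutrophil and mast cell granule genes, 3 were called higher and 1 lower, and 5 lay above the receptor level. The 3 became 1 without E11.5 hearts 2 or 3 or E13.5 hearts 2, 4 or 5, and 1 with the Y-linked covariate. Among 12 genes of antigen presentation and the interferon response, Irf7 (1.02 ± 0.22) and Ifit3 (1.33 ± 0.33) were called higher (4 members without E11.5 heart 4), and 8 of the 12 lay above the receptor level.

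Matrix genes of fibroblasts rose in number and in size. Dpt (dermatopontin, which binds decorin and collagen fibrils) read 5.86, 5.83, 5.49 and 6.17 at E11.5, against 8.52, 8.97, 9.40 and 9.22 at E13.5. The stages were 2.35 apart at their nearest hearts, and the log2 FC was 3.19 ± 0.21 (adjusted p = 3.93e-05). Aspn (asporin), a small leucine-rich proteoglycan, rose from 5.12, 5.78, 6.24 and 5.95 to 7.68, 8.63, 9.11 and 8.93 (log2 FC 2.82 ± 0.33, adjusted p = 0.000496). All E11.5 hearts read below the receptor level for both genes, and E13.5 heart 1 was the lowest of its stage.

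Of 35 matrix and fibroblast genes, 16 were called higher and 1 lower, with a median log2 FC of 0.43. The matricellular Thbs2 (2.14 ± 0.17) and the leucine-rich proteoglycans Ogn (1.84 ± 0.27), Lum (1.02 ± 0.17) and Dcn (0.99 ± 0.13) were among them, each with hearts apart. Col1a1, Col1a2 and Col3a1, for the main fibrillar collagens, were not called. Col1a1 read 11.03 to 11.47 at E11.5 and 10.71 to 10.95 at E13.5 (-0.42 ± 0.12, not called), Col1a2 had a log2 FC of 0.37 ± 0.09, which was called on the deposited values (0.61), and Col3a1 of -0.06 ± 0.11. Of 23 collagen genes 4 were called higher, and 1 without E13.5 heart 4 or 2 without E13.5 heart 5. On the deposited values, and with arrays centred on their medians, 10 were called higher, so that the count depended on the scaling. Pdgfra, a receptor of mesenchymal and fibroblast precursors, was not called (-0.09 ± 0.12).

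Genes of the endocardial cushions fell in part. Of 29 measured, 10 were called lower and 3 higher, with a median of -0.33. Hapln1, which links hyaluronan to versican, read 10.97, 11.10, 11.02 and 10.96 at E11.5, against 10.37, 10.44, 9.92 and 9.83 at E13.5 (log2 FC -0.87 ± 0.15, adjusted p = 0.00286). Both stages were again apart. Has2, the hyaluronan synthase of the cushions (-0.76 ± 0.19), and the cartilage-type collagen Col2a1 (-0.74 ± 0.17) fell in the same way. The cushion factor Sox9 had a log2 FC of -0.54 ± 0.12, and was not called on the deposited values or without E11.5 heart 1 (-0.50) or E13.5 heart 4 (-0.49). On the deposited values 5 members of the group were called lower and 3 higher. Eln, which encodes the elastin of arteries and late valves, rose from 9.48 to 9.77 to 10.34, 10.56, 11.01 and 11.34 (log2 FC 1.16 ± 0.21).

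The epicardial list split. Of 21 genes, 4 were called higher and 4 lower. Msln (mesothelin) read 6.95, 6.43, 7.20 and 7.32 at E11.5, against 9.07, 8.73, 8.74 and 8.73 at E13.5 (log2 FC 1.84 ± 0.19, adjusted p = 0.000275). The T-box factor Tbx18 (0.86 ± 0.11) and the secreted Wnt inhibitor Sfrp1 (1.03 ± 0.09) also rose. The uroplakin Upk1b (-0.79 ± 0.14) and the secreted Dmkn (-0.84 ± 0.13) fell, and Wt1, the factor that marks epicardium, read 9.85 to 10.11 at E11.5 and 9.37 to 9.80 at E13.5 (-0.38 ± 0.12, not called). Tcf21, a factor of epicardium and its fibroblast descendants, was also below the fold threshold (-0.48 ± 0.10).

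**Figure D2:**
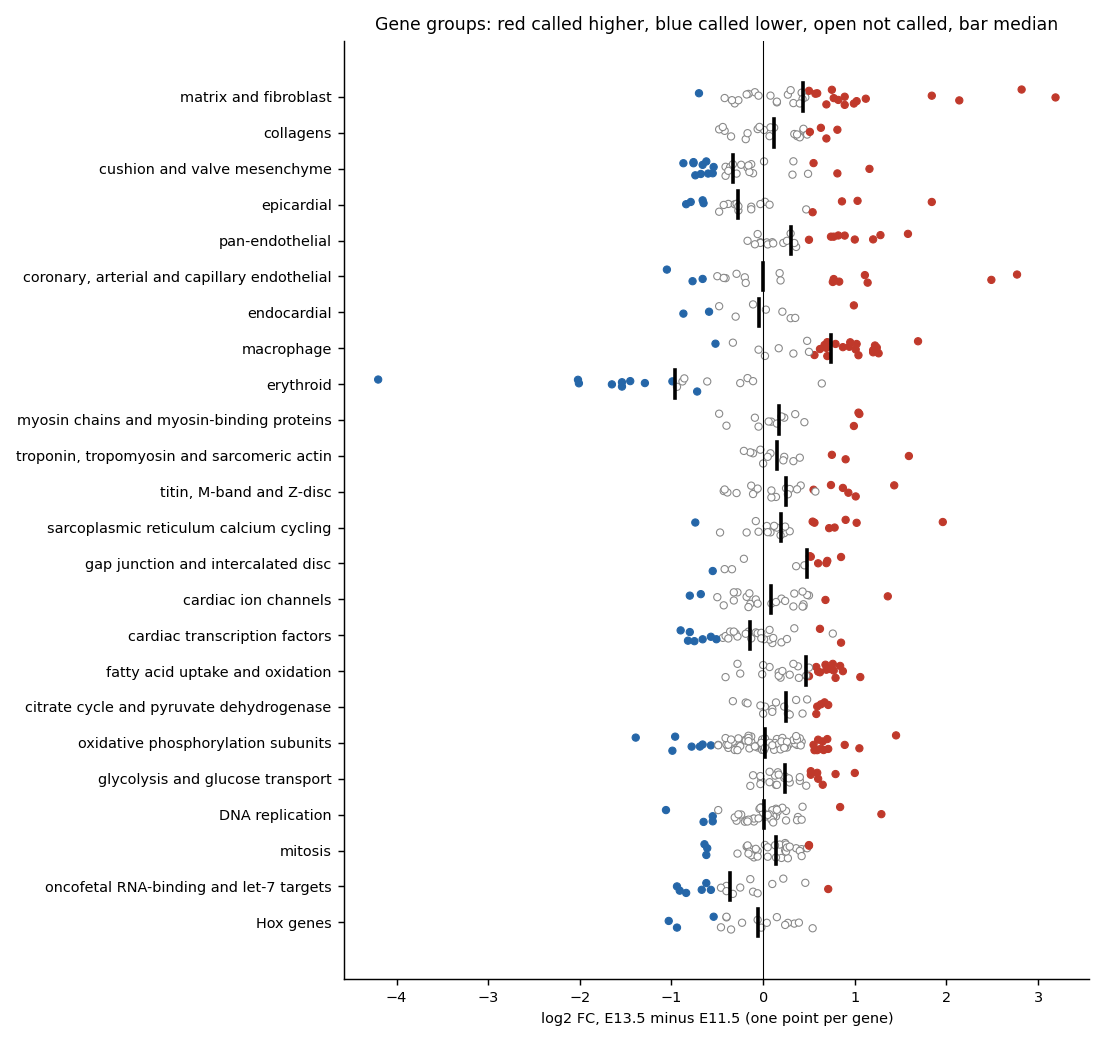
Log2 FC, E13.5 minus E11.5 (x axis), of each measured gene in 24 gene groups (rows). Red points were called higher, blue points lower and open points were not called, and the black bar is the group's median; macrophage genes centre on 0.75 and red cell genes on -0.97.

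Vessel genes rose in part. Of 23 genes used by all endothelium, 9 were called higher and none lower (median log2 FC 0.30). Cldn5, a tight junction protein of endothelium, read 7.34, 7.0, 7.40 and 7.16 at E11.5, against 8.60, 8.78, 9.02 and 8.81 at E13.5 (log2 FC 1.58 ± 0.13, adjusted p = 9.22e-05). Robo4, a guidance receptor of vessels (1.28 ± 0.10), and the sialomucin Cd34 (1.2 ± 0.09) rose with it. Genes that mark the lineage at large were among those not called, with Pecam1 at -0.03 ± 0.12, the junction cadherin Cdh5 at 0.04 ± 0.09 and the VEGF receptor Kdr at -0.06 ± 0.14.

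The coronary and capillary list held larger changes. Fabp4, a fatty acid carrier of capillary endothelium and fat, read 6.98, 6.36, 6.14 and 5.99 at E11.5, against 8.68, 9.02, 9.54 and 9.29 at E13.5 (log2 FC 2.77 ± 0.24, adjusted p = 0.000136). Meox2, a homeobox factor of heart endothelium, rose from 5.00, 5.31, 4.37 and 5.46 to 7.26, 7.38, 7.92 and 7.52 (log2 FC 2.49 ± 0.24, adjusted p = 0.000214). Both were fully apart. Apln (1.11 ± 0.17) and its receptor Aplnr (1.14 ± 0.18), marks of sprouting and of the coronary plexus, and the Notch ligand Dll4 (0.83 ± 0.11) rose as well. In all 7 of the 18 were called higher and 3 lower (5 lower without E11.5 heart 4), the falls led by Rgcc (-1.05 ± 0.26), a cell cycle regulator found in capillary endothelium. The list had no common direction, with a log2 FC above 0 for 9 members and below 0 for 9.

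Of 10 endocardial genes 1 was called higher, Cytl1, and 2 lower, Nfatc1 and Hapln1. The median log2 FC was -0.04, with 5 members above 0 and 5 below. Hapln1 was counted with the cushion genes as well. The endocardial factor Nfatc1 had a log2 FC of -0.59 ± 0.11 and was not called on the deposited values, and Npr3, a natriuretic peptide receptor of endocardium, was not called (-0.30 ± 0.11). Among 20 genes of smooth muscle and pericytes, 3 were called in each direction (5 lower without E11.5 heart 3). Those called higher included Casq2, which is described below with calcium handling. The pericyte regulator Rgs5 fell from 10.05, 9.98, 10.68 and 10.53 to 8.54, 9.06, 9.43 and 9.61 (log2 FC -1.15 ± 0.25, adjusted p = 0.00842), and the receptor Notch3 fell by 0.86 ± 0.13. Kcnj8, the potassium channel pore of pericytes and of muscle, rose by 1.36 ± 0.26. Of 6 lymphatic genes, Reln fell (-1.68 ± 0.28) and Lyve1, which macrophages also carry, was called higher (0.67 ± 0.18), though not without E13.5 heart 1 (0.61) or heart 5 (0.65).

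**Figure D3:**
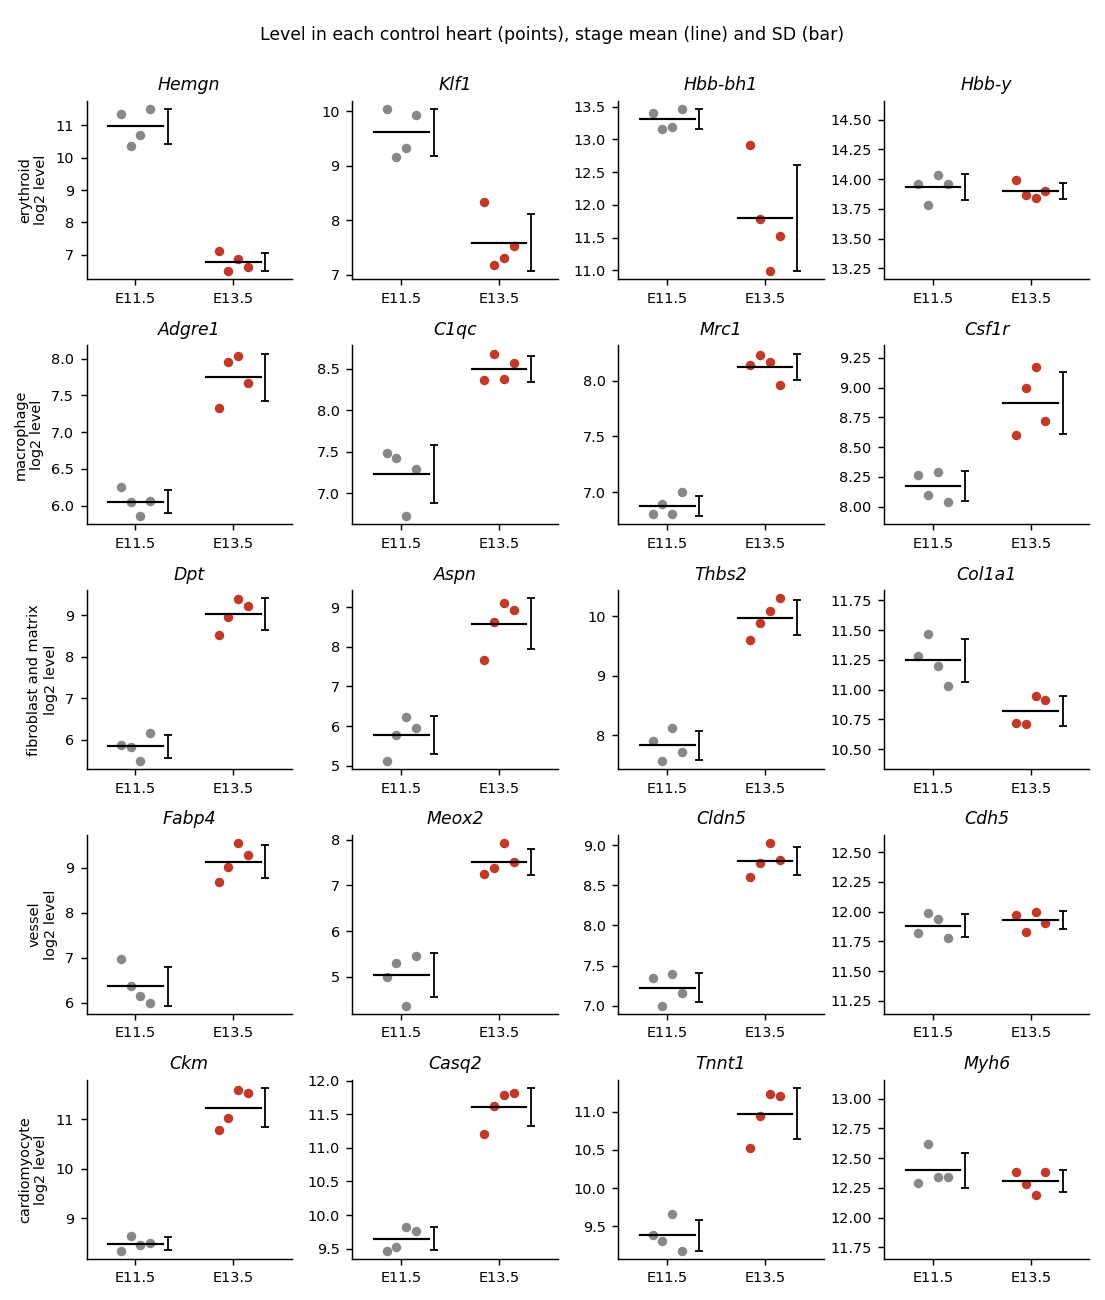
Log2 level (y axis) in each control heart of 20 genes of red cells, macrophages, matrix, vessels and cardiomyocytes. Grey points are the 4 hearts at E11.5 and red points the 4 at E13.5, lines are stage means and bars the SD; Hemgn, Adgre1, Dpt, Fabp4 and Ckm do not overlap between stages, whereas Hbb-y, Cdh5 and Myh6 do. The y axes differ between panels and do not start at 0.

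In the heart muscle, Myh6, Myh7, Tnni1, Tnni3, Actc1 and Acta1 were already high at E11.5 and were not called. Tpm1, given below, read 12.26 to 12.36 at E11.5 and was called higher. Myh6, the alpha heavy chain, read 12.29, 12.62, 12.34 and 12.34 at E11.5, against 12.38, 12.28, 12.19 and 12.38 at E13.5 (log2 FC -0.09 ± 0.11). The beta heavy chain Myh7 had a log2 FC of 0.23 ± 0.10. Neither was called, and the stages overlapped for both. The troponin I isoforms did not trade places at this scale, since the fetal Tnni1 averaged 12.42 at E11.5 and 12.82 at E13.5 (0.40 ± 0.11, below the fold threshold) and the adult cardiac Tnni3 had a log2 FC of 0.08 ± 0.09. The sarcomeric actins Actc1 (0.23 ± 0.09) and Acta1 (0.05 ± 0.09) and the smooth muscle actin Acta2 (0.19 ± 0.11) were not called either. Actc1 read 13.76 to 13.94 at E11.5 and 14.03 to 14.16 at E13.5, without overlap. As for the globins, whether a probe set still follows a change at such levels was not tested.

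Other sarcomere chains rose. Tnnt1, the slow skeletal troponin T, read 9.38, 9.31, 9.66 and 9.18 at E11.5, against 10.52, 10.95, 11.23 and 11.21 at E13.5 (log2 FC 1.59 ± 0.18, adjusted p = 0.000357). Of 14 troponin, tropomyosin and actin genes it was called with Tpm2 (0.90 ± 0.13) and Tpm1 (0.75 ± 0.09), and of 14 myosin genes the heavy chain Myh7b (1.05 ± 0.14), the light chain Myl1 (1.04 ± 0.14) and the binding protein Mybpc2 (0.99 ± 0.15) were called, all higher. Among 23 genes of the M-band and Z-disc 6 were called higher and none lower. Myom2, an M-band protein (1.43 ± 0.21), Myoz2, a calcineurin-binding Z-disc protein (1.01 ± 0.11), and the chaperone Cryab (0.93 ± 0.10) led them, whereas Ttn had a log2 FC of -0.43 ± 0.19.

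Genes of calcium handling changed unevenly. Casq2, the calcium buffer inside the sarcoplasmic reticulum, read 9.47, 9.53, 9.82 and 9.76 at E11.5, against 11.20, 11.63, 11.78 and 11.81 at E13.5. All E13.5 hearts lay at least 1.38 above all E11.5 hearts (log2 FC 1.96 ± 0.16, 3.89-fold, adjusted p = 8.62e-05). S100a1, which aids the pump and the release channel, rose by 1.02 ± 0.11, and Hrc, another binding protein of the store, fell by 0.74 ± 0.12. The pump Atp2a2 (0.23 ± 0.09) and the release channel Ryr2 (-0.47 ± 0.19) were not called. Of 22 genes 7 were called higher and 1 lower, and 4 were called higher without E13.5 heart 5. Probe sets of Trdn, for the store protein triadin, were called in opposite directions.

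At the cell borders, 6 of 12 gap junction and disc genes were called higher and 1 lower (3 higher without E13.5 heart 4). Gja5, the connexin of atria, trabeculae and the later conduction fibres, read 10.38, 10.49, 10.44 and 10.41 at E11.5, against 11.26, 11.26, 11.24 and 11.36 at E13.5 (log2 FC 0.85 ± 0.08, adjusted p = 0.000215). The connexin Gja3 (0.70 ± 0.12) and the plakoglobin gene Jup (0.69 ± 0.10) rose, and Gjc1, a connexin of the early heart, had a log2 FC of -0.55 ± 0.10 that was not called on the deposited values or without E13.5 heart 1 (-0.48). Of 27 ion channel genes 2 were called higher and 2 lower (4 higher without E11.5 heart 2, 1 without E13.5 heart 4). On the deposited values 7 were called higher and 1 lower, and with arrays centred and scaled 7 and 2. Hcn4, the pacemaker channel, read 9.89 to 10.35 at E11.5 and 9.24 to 9.62 at E13.5 (-0.68 ± 0.14), a fall that was not called on the deposited values. Chrm2, the muscarinic receptor through which the vagus slows the heart, rose from 9.09, 9.04, 9.27 and 8.72 to 9.82, 10.11, 10.34 and 10.13 (log2 FC 1.07 ± 0.15, adjusted p = 0.00109).

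Of 32 cardiac transcription factors 7 were called lower and 2 higher, and on the deposited values 4 were called lower and 3 higher. Gata5, a factor of endocardium and cushions, fell from 11.33, 11.27, 11.18 and 10.98 to 10.37, 10.35, 10.17 and 10.28 (log2 FC -0.90 ± 0.11, adjusted p = 0.000495). Hand1, a factor of the left ventricle's outer curve, fell by 0.82 ± 0.11 and the nuclear receptor Nr2f1 of the atria by 0.75 ± 0.14. Mef2a, a factor of muscle genes, rose from 11.18 to 11.24 at E11.5 to 11.88, 12.11, 12.16 and 12.06 (log2 FC 0.85 ± 0.09), and Hey2, which marks compact myocardium, by 0.62 ± 0.10. The core factors Nkx2-5 (0.34 ± 0.10), Gata4 (-0.44 ± 0.09) and Tbx5 (-0.16 ± 0.10) were not called. Mb, the oxygen store myoglobin, rose (1.29 ± 0.14), and the natriuretic peptide Nppa stayed just under the fold threshold (0.49 ± 0.10, adjusted p = 0.00506), with Nppb at -0.13 ± 0.17.

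Genes of fuel use rose unevenly. Ckm, the muscle creatine kinase, read 8.35, 8.65, 8.46 and 8.51 at E11.5, against 10.78, 11.02, 11.59 and 11.53 at E13.5. The stages were 2.13 apart at their nearest hearts (log2 FC 2.74 ± 0.19, 6.68-fold, adjusted p = 4.29e-05), whereas the brain-type isoform Ckb was not called (0.08 ± 0.10).

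Of 29 genes of fatty acid uptake and oxidation, 13 were called higher and none lower, with a median log2 FC of 0.47. They ran from entry into the cell (Cd36, 0.77 ± 0.10; Lpl, which frees fatty acids from lipoproteins, 0.84 ± 0.17) through the carnitine carrier of the inner mitochondrial membrane (Slc25a20, 0.87 ± 0.11) to the spiral of oxidation (Acadvl, 0.76 ± 0.09; Echs1, 0.79 ± 0.11). Cd36 was counted in the coronary and capillary list as well. Acot2, a mitochondrial thioesterase, changed most, from 11.24, 10.94, 11.26 and 11.04 to 12.06, 12.36, 12.22 and 12.06 (log2 FC 1.06 ± 0.12). Cpt1a, the liver-type gate of the pathway, was not called (0.07 ± 0.09), and no probe set named Cpt1b alone.

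Of 20 genes of the citrate cycle and pyruvate dehydrogenase 5 were called higher and none lower, among them the pyruvate carrier Mpc1 (0.71 ± 0.13) and Idh3a (0.67 ± 0.09). Citrate synthase, Cs, was below the fold threshold (0.27 ± 0.09). Of 26 glycolytic genes 7 were called higher and none lower. Tpi1 rose from 11.99, 11.98, 12.06 and 11.84 to 13.07, 13.01, 12.88 and 12.92 (log2 FC 1.00 ± 0.09). The muscle mutase Pgam2 rose by 0.79 ± 0.09, and the probe set for the general Pgam1 did not change beyond its error (-0.02 ± 0.09). Whether the probe sets for Pgam1, Mpc1 and Hk1 read the loci of these genes themselves was not checked. Eno3, the muscle enolase, was called higher (0.52 ± 0.10), a call lost without E11.5 heart 1 (0.48) or heart 2 (0.47) and under loess (0.48). The glucose carriers Slc2a1 (-0.14 ± 0.09) and Slc2a4 (0.23 ± 0.10) and the hexokinases Hk1 (0.13 ± 0.10) and Hk2 (0.07 ± 0.15) were not called.

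Subunits of the respiratory chain and ATP synthase did not rise as a set. Of 77 measured, 12 were called higher and 7 lower, against 14.1% and 9.55% of all genes above the receptor level. The median log2 FC was 0.02, but 0.22 on the deposited values, where 21 were called higher and 4 lower. Members of complex I lay at both ends. Ndufa13 read 9.67, 9.39, 9.73 and 9.85 at E11.5, against 11.08, 11.09, 11.21 and 11.09 at E13.5 (log2 FC 1.45 ± 0.11, adjusted p = 8.33e-05), while Ndufa7 read 10.73, 10.74, 10.70 and 10.61 at E11.5, against 9.42, 9.30, 9.27 and 9.23 at E13.5 (log2 FC -1.39 ± 0.09, adjusted p = 3.71e-05). Both calls held on the deposited values. For the paired isoforms, the muscle form Cox8b rose (0.59 ± 0.11), while Cox8a (-0.27 ± 0.08), Cox6a1 (-0.41 ± 0.11), Cox6a2 (0.33 ± 0.12), Cox7a1 (-0.16 ± 0.10) and Cox7a2 (-0.16 ± 0.11) were not called. Among 12 regulators of mitochondrial genes, Rxrg rose (0.86 ± 0.14) and Esrra fell (-0.79 ± 0.14).

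**Figure D4:**
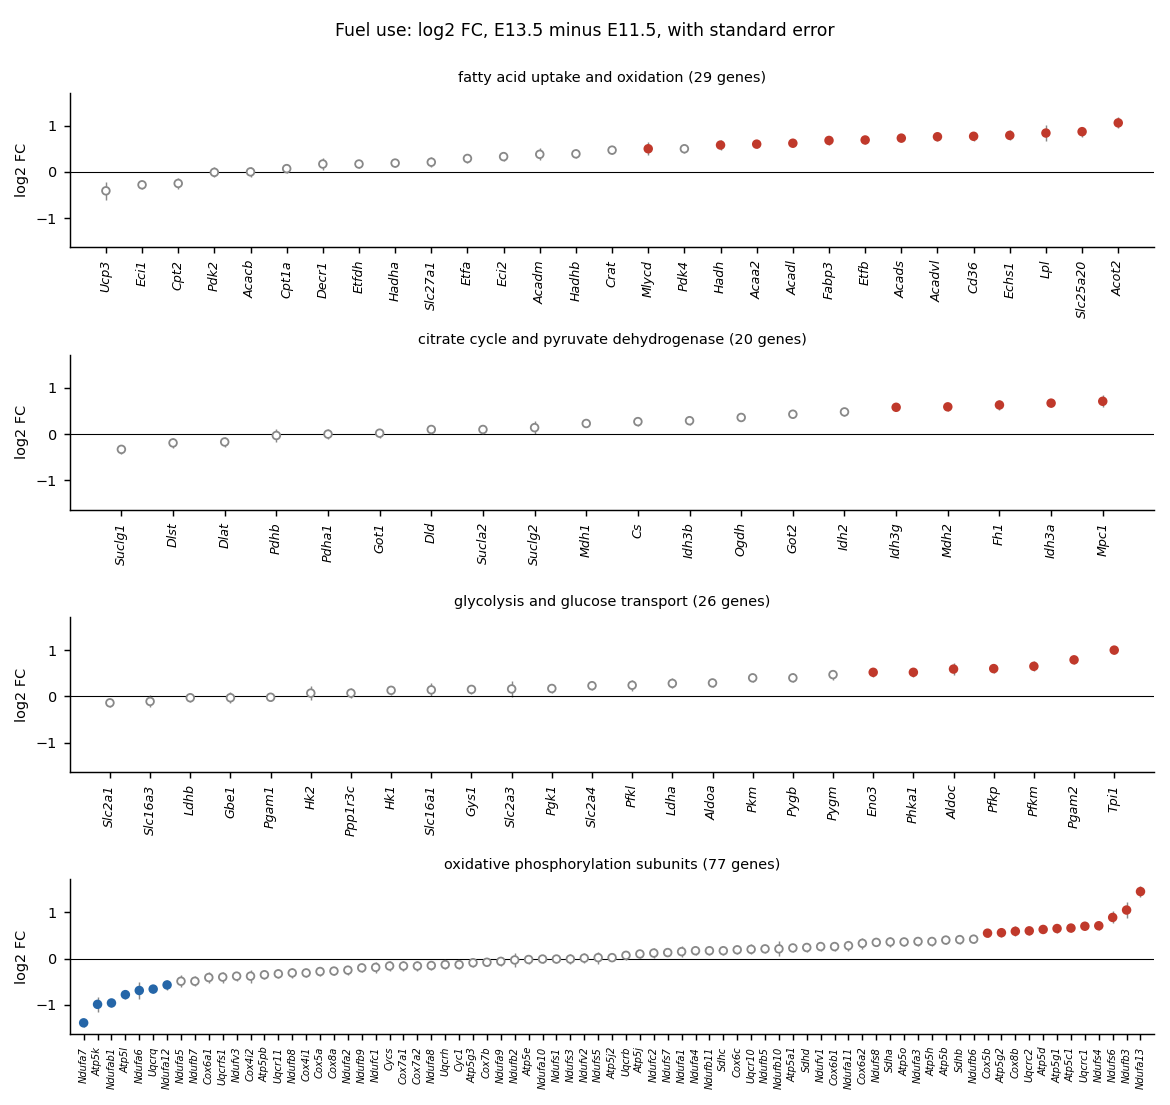
Log2 FC, E13.5 minus E11.5 (y axis), of each gene of 4 fuel pathways, ordered by size, with the standard error. Red points were called higher, blue points lower and open points were not called; 13 of 29 fatty acid genes are red and none blue, whereas the 77 respiratory chain and ATP synthase genes run from -1.39 to 1.45.

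Cell cycle genes were called in both directions. Of 42 genes of DNA replication 2 were called higher and 4 lower (median log2 FC 0.01), and of 38 genes of mitosis 2 were called higher and 3 lower (0.14). Among all genes above the receptor level, 14.1% were called higher and 9.55% lower. The mitosis genes called were Aurkb and Nusap1, higher, and Mki67, Ndc80 and Cenpe, lower. On the deposited values the counts called higher and lower were 6 and 1 for replication and 9 and 0 for mitosis, so their direction depended on the scaling. No mitosis gene was called higher with the Y-linked covariate or without E11.5 heart 2 or E13.5 hearts 1 or 5, and 1 was without E13.5 hearts 2 or 4. Rfc4, a clamp loader subunit, rose from a mean of 9.95 to one of 11.24, with hearts apart (log2 FC 1.29 ± 0.09), and E2f2, a factor of the S phase used by red cell precursors, fell by 1.06 ± 0.21.

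Genes of early embryonic timing fell in part. Of 18 oncofetal and let-7 target genes 6 were called lower and 1 higher, with a median log2 FC of -0.37 (4 lower and 2 higher on the deposited values). Hmga2, a chromatin protein of growing embryonic tissue, read 11.29, 11.27, 11.41 and 11.17 at E11.5, against 10.68, 10.40, 10.28 and 10.14 at E13.5 (log2 FC -0.91 ± 0.13, adjusted p = 0.00111). Trim71 (-0.94 ± 0.18) and Lin28b, which blocks the maturation of let-7 (-0.62 ± 0.13), fell with it. The growth factor Igf2 was not called, at 13.45 to 13.55 and 13.57 to 13.70 (0.14 ± 0.08), and Igfbp3, which binds it, rose (0.85 ± 0.11). Of 17 Hox genes 3 were called lower, but only 8 of the 17 lay above the receptor level.

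Signals changed gene by gene. Among 26 Wnt pathway genes 5 were called higher and 6 lower (6 and 3 on the deposited values). Dkk1, a secreted Wnt inhibitor, read 8.43, 8.23, 8.32 and 8.56 at E11.5, against 6.67, 7.15, 6.31 and 6.60 at E13.5 (log2 FC -1.70 ± 0.17, adjusted p = 0.000246), while the inhibitors Sfrp1, given above, and Sfrp2 (1.15 ± 0.21) rose. In retinoic acid signalling Dhrs3, which turns retinal back into retinol, rose from 8.22, 7.67, 8.10 and 7.93 to 9.20, 9.51, 9.48 and 9.82 (log2 FC 1.52 ± 0.16), and the enzyme Aldh1a2 that makes the acid did not change beyond its error (0.02 ± 0.12). Of 19 FGF genes 4 were called higher and none lower, including Fgf12 (0.87 ± 0.18) and Fgfr4 (0.84 ± 0.12).

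Of 27 genes of neural crest, glia and nerve 2 were called higher and 2 lower, and 16 of the 27 lay above the receptor level. Fabp7, a fatty acid carrier of glial precursors, rose from 8.06, 7.86, 7.87 and 7.54 to 8.58, 8.97, 9.17 and 9.40 (log2 FC 1.2 ± 0.18), and the neuregulin receptor Erbb3 fell (-0.75 ± 0.16). Tubb3 fell by more than Erbb3, to an E13.5 mean below the receptor level, but its stages overlapped. Nefm was called higher below that level, and Sox10 was not called. Of 19 second heart field and pharyngeal genes 1 was called lower, with 0 to 4 in the fits that left out a heart (4 without E13.5 heart 1, 3 without E11.5 heart 1, 2 without E11.5 hearts 2, 3 or 4, none without E13.5 heart 2). Lists for tissues beside the heart gave 1 of 12 liver genes higher, 2 of 12 lung and foregut genes higher, 1 of 14 skeletal muscle genes lower and 1 of 9 lymphoid genes lower. Of these lists 6, 10, 7 and 3 members lay above the receptor level. The lymphoid genes had a median log2 FC of -0.42, and 5 were called lower on the deposited values and up to 3 in the fits that left out a heart (3 without E11.5 hearts 1 or 3, 2 without E11.5 heart 2 or E13.5 hearts 2 or 5). The plasma protein gene Ahsg read 5.52 to 5.90 at E11.5 and 6.76 to 7.28 at E13.5 (1.34 ± 0.15). Alb, for albumin, read 6.83, 5.71, 8.58 and 7.35 in the E13.5 hearts and 5.22 to 5.91 at E11.5, and was not called (1.42 ± 0.51).

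The array also holds probe sets on microRNA loci. They read the primary transcript or hairpin in whole RNA and not the mature strand. Of 298 loci 24 were called higher (8.05%) and 56 lower (18.8%), and 93 lay above the receptor level. The probe set at Mir145a, a locus of smooth muscle, read below the receptor level in every E11.5 heart and above it in every E13.5 heart, from 4.51, 4.26, 4.04 and 4.77 to 7.76, 8.37, 7.67 and 8.15 (log2 FC 3.60 ± 0.20, adjusted p = 2.57e-05). In the imprinted Dlk1-Dio3 cluster of chromosome 12, 39 loci were measured between 109571990 and 109743496 (GRCm38.p6). There 8 were called higher and 3 lower, against 16 higher and 53 lower of the 259 loci elsewhere, and the median log2 FC was 0.14 against -0.17. Of the 39 loci 18 lay above the receptor level, among them 5 of the 8 called higher, against 75 of the 259 elsewhere. The difference between the cluster and the other loci was not tested. Meg3, the long RNA transcribed from the same strand, was called higher (0.59 ± 0.18), though the call was lost in 6 of the 8 fits that left out 1 heart (0.50 to 0.59), all but those without E11.5 heart 1 or E13.5 heart 4.

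The mature sequences (RefSeq, GRCm38.p6) of the loci with the largest rises in the cluster, of loci that lie within a heart or vessel gene, and of a let-7 locus, whose family targets genes of the timing list, are given 5′ to 3′ with the seed, bases 2 to 8, in capitals.
miR-377-3p: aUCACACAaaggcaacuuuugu
miR-382-5p: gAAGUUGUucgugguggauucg
miR-539-5p: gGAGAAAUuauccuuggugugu
miR-323-3p: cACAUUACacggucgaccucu
miR-208a-3p: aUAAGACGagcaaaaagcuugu
miR-126a-3p: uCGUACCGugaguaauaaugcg
let-7i-5p: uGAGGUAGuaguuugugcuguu
No seed was shared among these 7.

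Mir377 read 4.17 on average at E11.5 and 6.88 at E13.5 (log2 FC 2.71 ± 0.13), and Mir382 4.64 and 7.22 (2.58 ± 0.16). Both passed the receptor level only at E13.5. Mir539 (1.43 ± 0.18) and Mir323 (1.12 ± 0.20) were called higher at lower levels. Within the same cluster Mir667 (-1.19 ± 0.16) and Mir341 (-1.12 ± 0.13) were called lower, so that neighbouring loci did not move as a unit.

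Mir208a, which lies in an intron of Myh6, read 4.65, 5.07, 4.80 and 4.38 at E11.5, against 5.91, 6.82, 5.56 and 6.59 at E13.5 (log2 FC 1.49 ± 0.28), whereas Myh6 did not change beyond its error. Mir126a, which lies in the endothelial gene Egfl7, rose by 0.75 ± 0.15, and Egfl7 by 0.74 ± 0.13. Both microRNA loci lay below the receptor level. Mirlet7i, a let-7 locus, fell from 7.88, 7.97, 7.88 and 7.67 to 7.07, 7.02, 6.54 and 6.77 (log2 FC -1.0 ± 0.14). Its seed is that of the let-7 family, whose targets include Hmga2 and Lin28b.

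**Figure D5:**
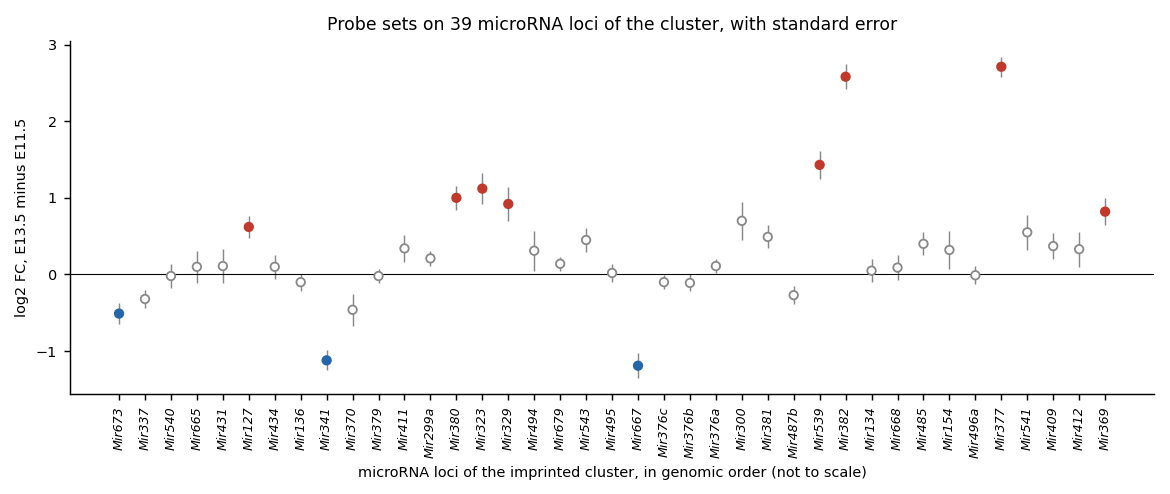
Log2 FC, E13.5 minus E11.5 (y axis), with standard error, of probe sets on 39 microRNA loci of the imprinted cluster, in genomic order (x axis, not to scale). Red loci were called higher, blue loci lower and open loci were not called; Mir377 and Mir382 stand highest, at 2.71 and 2.58.

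Other genes named by size alone fell outside the groups. Pcgf1, a Polycomb ring finger gene, rose by 2.65 ± 0.18, Zfp330 by 2.72 ± 0.20 and Pcnp by 2.60 ± 0.15. Their hearts were apart by the rule that named them, and another probe set of Pcnp was called lower. Whether the brightest probe set for Pcnp reads the Pcnp locus itself was not checked. Small nucleolar RNA loci were called higher in 21 of 54 cases (38.9%) and lower in 11 (20.4%), against 11.4% and 9.54% of all genes. Snord37 (2.32 ± 0.13) and Snora23 (2.30 ± 0.30) were among those called higher. On the falling side stood Acp5, an acid phosphatase of macrophages and bone (-2.70 ± 0.38), the hepcidin gene Hamp2 (-2.26 ± 0.22), the histone gene H2bc22 (-2.06 ± 0.20), and Krtap5-3 (-2.54 ± 0.35), Krtap1-5 (-2.20 ± 0.37), Olfr114 (-2.02 ± 0.35) and Crygf (-1.84 ± 0.12), which are genes of hair, smell and the lens. Tmem184a (-2.17 ± 0.25), Slc25a21 (-2.13 ± 0.38) and the microRNA locus Mir204 (-1.89 ± 0.31) completed the falls named by size, and the loci Mir568 (2.90 ± 0.24) and Mir7-1 (2.51 ± 0.13) the rises. The fall of Krtap5-3, Krtap1-5, Olfr114 and Crygf ran the same way as that of the receptor genes as a whole.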

How the data were processed

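Each of 16 arrays (Affymetrix Mouse Gene 1.0 ST) read RNA of 1 heart, and the 8 control arrays were used. The authors made the deposited log2 values with RMA (affy); whether both stages were normalised in 1 run is not given in the sources used here. No counts or depth exist for arrays, and the number of arrays limits the precision. The deposited log2 values of the 8 arrays were quantile normalised and fitted with limma 3.58.1 in R 4.3.3 (lmFit, eBayes; E13.5 against E11.5), with Benjamini-Hochberg adjustment over 34760 probe sets. The fit was run on simulated arrays with 50 probe sets changed at each size. It recovered 52% of log2 changes of 0.75, 80% of 1, 96% of 1.5 and 98% of 2, with 13 false calls. Noise was independent between probe sets, and no array shift between stages was simulated. Genes were named from the platform annotation, updated through RefSeq. A gene with several probe sets (954 genes, of which 66 had probe sets called in opposite directions) was read by the brightest. The genome position of the probe sets was not checked against that of the gene. For Mpc1, Pgam1, Hk1 and Pcnp, the probe set number lay among those of genes on another chromosome.

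Genes named were drawn by rule: the 15 largest changes in each direction with hearts apart and called on the deposited values too, and, per gene list, the 6 largest called members, the first 3 members and paired isoforms. Not every list member drawn in this way was named, and the choice among them followed no set rule. Chd7, Egfl7, Foxf1, Foxf2, Timd4, Mir126a, Mir208a, Mir323, Mir341, Mir539, Mir667 and Mirlet7i were chosen after their values were seen. So were the sensory receptor group, the promoter motif and the mention of Trdn. The gene lists and the comparison itself were chosen with earlier results of these data known. P-values measure the spread between these hearts. Other normalisations, filters, thresholds, a Y-linked covariate and leaving out each heart were tried. The mutant arrays were not used.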

Additional observations from a re-analysis of the deposited data

Results flagged for a closer look

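In each stage of 4 hearts, the gap between the highest or lowest heart and the next was set against the range of the stage (Dixon's ratio at its 95% critical value). Of 370 gene and stage pairs, 21 had a heart past it, and chance alone would give about 1 in 20. At E11.5, heart 2 stood apart in the log2 level of C1qa (6.28), Mir341 (9.90), Myh6 (12.62) and Ttn (11.76). At E11.5, heart 3 stood apart in the log2 level of Alb (5.22) and Tnnt2 (13.40). At E13.5, heart 1 stood apart in the log2 level of Ank1 (9.85), Foxf1 (9.78), Foxf2 (8.79), Kcnj8 (8.22), Msln (9.07), Myoz2 (11.47), Rfc4 (11.12), Rhag (9.80) and Slc25a21 (6.89). At E13.5, heart 2 stood apart in the log2 level of Mir126a (5.10) and Slc2a4 (9.49). At E13.5, heart 4 stood apart in the log2 level of Aplnr (9.23) and Ndufa13 (11.21). At E13.5, heart 5 stood apart in the log2 level of Gja5 (11.36) and Tnni3 (13.10). E13.5 heart 1 was the heart set apart most often, but Foxf1 and Foxf2 were named because they stood out in it. Their pairs therefore add nothing independent to its count. The causes were not tested.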

How the results depend on the processing

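The counts of 2267 higher and 1901 lower genes were 3298 and 2444 on the deposited values, 3789 and 2091 with arrays centred on their medians, 2496 and 1876 with arrays centred and scaled, and 2190 and 1953 under cyclic loess. They were 3609 and 2948 with no fold threshold, 352 and 286 above a log2 FC of 1, and 311 and 203 when limma's treat tested against 0.5. Leaving out dim probe sets gave 1902 and 1283, the Y-linked covariate 2052 and 1607, and the filter at the receptor level, chosen after seeing the data, 1962 and 1327. Leaving out 1 heart gave 1933 to 2337 higher and 1571 to 1961 lower genes. The remaining alternatives (trended and robust prior, array weights, single-gene probe sets only, median of probe sets) stayed within 1.5 times of both counts. Replicate numbers named different embryos, and hearts with the same number did not deviate together (r of 0.025, -0.028 and -0.011), so they did not pair the samples; a fit with the replicate number as a block gave 1258 and 943.

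Of 185 genes named with values, 137 were called, and no called gene changed sign under any alternative. On the deposited values 133 stayed called, with the Y-linked covariate 134, with the replicate block 113 and under treat 69; 129 stayed called whichever heart was left out. Of the 48 uncalled genes 5 gained a call on the deposited values (Col1a2, Cox6a2, Nkx2-5, Nppa and Tnni1), the same number with arrays centred on their medians, and 3 with arrays centred and scaled. Among gene groups, the counts called higher and lower moved on the deposited values, to 5 and 0 from 3 and 0 for myosin, 8 and 0 from 5 and 0 for the citrate cycle, 3 and 1 from 1 and 2 for endocardial, 6 and 3 from 3 and 3 for smooth muscle and pericyte, 5 and 2 from 4 and 4 for epicardial and 6 and 1 from 4 and 0 for FGF genes, beside the groups given above. All of the genes that changed sign were uncalled. Col3a1 (0.17), Cox7a1 (0.08), Cox7a2 (0.06), Hbb-y (0.12), Kdr (0.18), Myh6 (0.09), Nppb (0.09), Pdgfra (0.15), Pecam1 (0.22), Pgam1 (0.15) and Tbx5 (0.08) changed sign on the deposited values. Col3a1 (0.21), Cox7a1 (0.12), Cox7a2 (0.10), Hbb-y (0.17), Kdr (0.23), Myh6 (0.13), Nppb (0.14), Pdgfra (0.20), Pecam1 (0.26), Pgam1 (0.20), Slc2a1 (0.03) and Tbx5 (0.13) changed sign with arrays centred on their medians. Acta1 (-0.02), Acta2 (-0.14), Actc1 (-0.09), Actn2 (-0.13), Atp2a2 (-0.06), Cdh5 (-0.06), Ckb (-0.01), Hk1 (-0.10), Igf2 (-0.26), Myh7 (-0.06), Tnni3 (-0.19) and Tnnt2 (-0.06) changed sign with arrays centred and scaled. Aldh1a2 (-0.01), Igf2 (-0.02) and Tnni3 (-0.01) changed sign under cyclic loess. Col3a1 (0.01), Eif2s3y (0.39) and Pecam1 (0.02) changed sign with the Y-linked covariate. Hbb-y (0.00), Pdgfra (0.00) and Pgam1 (0.05) changed sign with the replicate block. Aldh1a2 (-0.01) changed sign with array weights. Hk1 (-0.02) changed sign with the median of probe sets. Acta1 (-0.01 to 0.08), Aldh1a2 (-0.06 to 0.08), Col3a1 (-0.13 to 0.00), Foxf2 (-0.22 to 0.88), Hk2 (-0.03 to 0.15), Kdr (-0.18 to 0.05), Nppb (-0.26 to 0.01), Pecam1 (-0.09 to 0.05) and Pgam1 (-0.05 to 0.02) changed sign in at least 1 fit that left out a heart (range over the 8 fits).

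A p that misses the threshold does not show that the stages were alike at 4 hearts each.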
